A study of Mus musculus with 47 samples.

Results

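RNA of 4 B78 control tumors, numbered 001 to 004, was compared with RNA of 4 cultures of B78 control cells, numbered 1 to 4. These are 8 of the 47 samples of a series on melanoma cells with edited mitochondrial DNA, and all 8 were unedited, labelled wild type and untreated. B78-D14 is an amelanotic mouse melanoma line derived from B16 that lacks Cdkn2a, so that every library rests on a single line. The cultures were grown in a high-glucose medium with serum, and the tumors were grown under the skin of immunocompetent male C57BL/6 mice from cells injected in Matrigel. Tumor fragments were kept in RNAlater and culture pellets were frozen, so that handling and growth in the animal cannot be told apart. The members were chosen from the labels, and genes were then divided into culture-silent genes, with under 0.1 count per 1000000 (CPM, scaled by edgeR's TMM factors) in each of the 4 cultures and at least 1 CPM in each of the 4 tumors, and culture-expressed genes, with at least 1 CPM in each of the 4 cultures.

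A tumor grown from a pure cell line holds the injected cells together with cells that the host supplies, among them macrophages, lymphocytes, endothelium, pericytes and fibroblasts. A bulk RNA library reads all of them as one mixture. Genes that the line does not transcribe in culture are the readiest view of the host cells, while genes that the line does transcribe carry the sum of its own response to the tissue and of what the host cells add. More cells of a type and more RNA per cell cannot be told apart in such libraries.

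The cultures held 27901430 to 36173502 counts on genes and the tumors 21848594 to 31218475. At least 1 CPM was reached by 11327 to 11541 genes in a culture and by 13139 to 13467 genes in a tumor. Protein-coding genes took 97.3% to 98.1% of the counts in cultures and 97.8% to 98.5% in tumors. Cultures 1 and 2 stood apart from cultures 3 and 4: across 15047 genes the log2 CPM of cultures 1 and 2 had a Pearson correlation of 0.996 and that of cultures 3 and 4 one of 0.991, against 0.966 to 0.975 between the pairs. No 2 libraries agreed within sampling noise. Values against each pair of cultures are therefore given beside several of the results below. The labels number the samples without saying what separates the 4 cultures, so that p values measure the spread between these samples, which may be technical.

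Of the 15047 genes with enough counts to be tested, 3673 were higher in tumors and 1264 lower, at an adjusted p under 0.1 and a fold change of at least 2 (edgeR's quasi-likelihood test with Benjamini-Hochberg adjustment). These are 24.4% and 8.4% of the genes tested. Culture-silent genes numbered 624, of which 598 were protein-coding and 336 had no count in any culture. They were chosen for this contrast and are described without a test. They took 0.000523% to 0.0006% of the counts of a culture and 0.893% to 1.15% of those of a tumor. Culture-expressed genes numbered 10899, of which 904 (8.29%) were higher and 1122 (10.3%) lower in tumors, and the groups did not overlap for 889 of the former and 1031 of the latter (8.16% and 9.46% of the class). Since a culture-expressed gene had to be present in every culture and not in every tumor, this class favours falls. Its median log2 fold change was -0.19, against 0.04 over all genes tested. The remaining 3524 tested genes lay between the classes, with 2145 higher and 142 lower. With libraries scaled to the culture-expressed genes alone, log2 fold changes moved up by 0.16 at the median of all genes, and 1175 culture-expressed genes were higher and 712 lower (62.3% of the calls higher, against 44.6%).

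**Figure D1:**
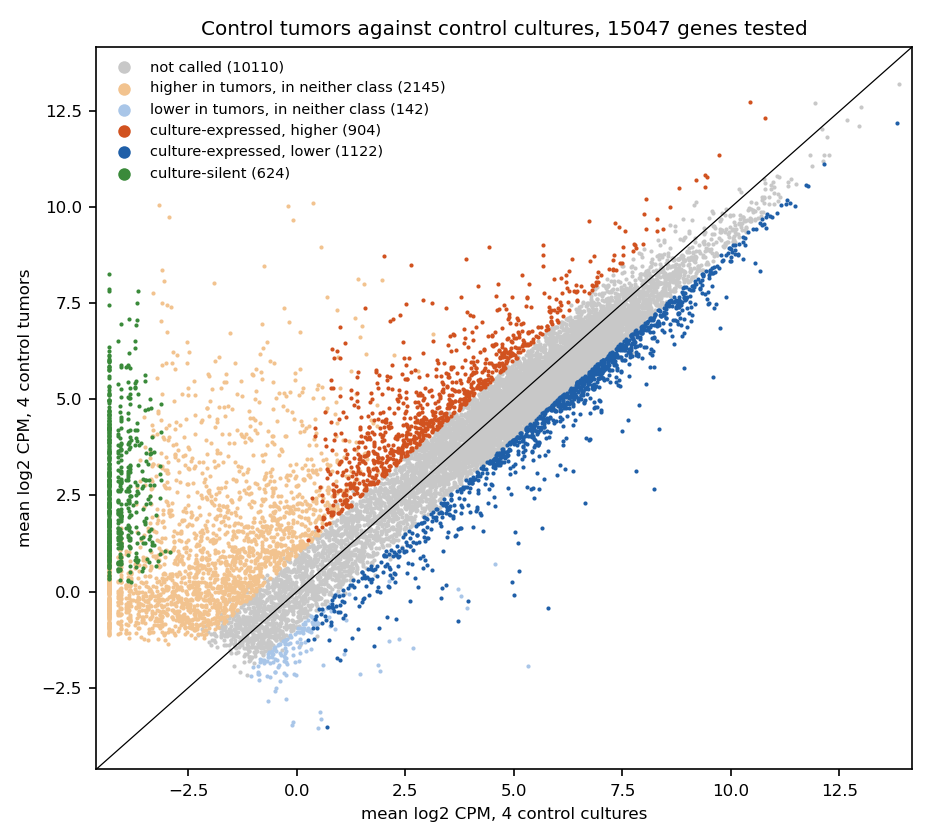
Mean log2 CPM (with 0.05 CPM added) of each of 15047 tested genes in the 4 control cultures, on the horizontal axis, and in the 4 control tumors, on the vertical axis, with a line of equal level. The 624 culture-silent genes form a column at the left edge, while the 904 higher and 1122 lower culture-expressed genes lie on either side of the line.

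At the bounds of the culture-silent class, Nfib, a transcription factor, was just outside the culture bound with 0.109 CPM in culture 4. Tjp3 was just inside the tumor bound with 1 CPM in tumor 003, and Tnfsf14 was just outside it with 0.979 CPM in tumor 001. Among the culture-silent genes with the highest CPM were those of complement C1q, which macrophages make. C1qa, C1qb and C1qc encode its chains and lie next to each other on chromosome 4 (GRCm39, 136606009 to 136626161). C1qa was at 329, 349, 285 and 267 CPM in tumors 001 to 004 and had no count in any culture, where 0 counts allow up to 0.0273 CPM, so that it was at least 11300-fold higher in tumors. C1qc was at least 8570-fold and C1qb at least 8310-fold higher, and both had no count in any culture.

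Ctss, the lysosomal protease cathepsin S, was at 233, 300, 150 and 231 CPM in tumors and at no more than 0.0804 CPM in a culture. Laptm5, a lysosomal membrane protein of blood cells, was at 159 to 226 CPM in tumors. Mmp12, the macrophage elastase, was highest in tumor 002, at 211 CPM, and lowest in tumor 003, at 99.3 CPM. Sirpa, the receptor through which macrophages read CD47, was at 103 to 147 CPM, and Ucp2, a carrier of the inner mitochondrial membrane, was at 114 to 163 CPM. H2-Eb1, a chain of MHC class II, was at 149, 218, 52.8 and 83.8 CPM, a spread far wider than that of C1qa.

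Igfbp3, a secreted binding protein of insulin-like growth factors, was the exception among the first 10 in varying the other way, with 183, 87.8, 220 and 207 CPM in tumors 001 to 004 and none in cultures (at least 6380-fold higher). Per kilobase of exon, the leading genes also included Tyrobp, the adaptor of myeloid receptors, with 41.7 to 53.1 CPM, and the predicted gene Gm56663, with 11.5 to 26.4 CPM. The chemokines Ccl6 and Ccl8 were there as well, Ccl6 at 59, 27.4, 134 and 66.5 CPM and Ccl8 at 25.3, 16.5, 30.6 and 5.66 CPM. Of the 624 genes, 381 had all 4 tumors within 2-fold of each other and 51 had tumors over 4-fold apart. The highest tumor was 002 for 323 genes, 003 for 158, 004 for 85 and 001 for 58.

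Marker lists were then read for the cell types a subcutaneous tumor could hold. They counted 181 genes, of which 134 could be tested and 59 were culture-silent. A marker with no count or a few counts in cultures could pass the filter on low counts through the tumors alone and had to come out higher, so that the counts of higher markers below are descriptions and carry no support of their own. Leukocyte transcripts were found in every tumor: 9 of 10 pan-leukocyte genes were higher, against 24.4% of all genes. Ptprc, the leukocyte common antigen CD45, had no count in any culture and was at 62, 87.3, 45.6 and 69.7 CPM in tumors (at least 2420-fold higher). The 10th gene, Arhgap30, was already at 58.4 to 82.6 CPM in cultures and at 91 to 120 CPM in tumors, a difference under 2-fold.

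The 16 macrophage markers were all higher in tumors, but 9 had no count in any culture and 12 were culture-silent. Adgre1, which encodes F4/80, was at 72.5, 81.6, 65.5 and 58.7 CPM in tumors and had no count in cultures (at least 2550-fold higher). Csf1r, the receptor that macrophages need to survive, was at 165 to 225 CPM in tumors and at 0.186 CPM or less in cultures. Summed over the list, macrophage markers came to 2400 to 2620 CPM in the 4 tumors, a range of 1.09-fold, and to 2.81 to 4.29 CPM in cultures. No other list of a host cell type was so even.

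Of 10 tested monocyte and neutrophil markers 9 were higher and 1 lower, with 5 at no count in any culture. Ccr2, the chemokine receptor of monocytes, was at 46.3, 101, 46.5 and 64.5 CPM in tumors with none in cultures (at least 2360-fold higher). The neutrophil alarmins S100a8 and S100a9 reached 1.86 to 4.38 and 2.73 to 6.65 CPM, and Csf3r, the receptor of the neutrophil growth factor, 5.11 to 12.6 CPM. Other neutrophil markers were near 0: the surface antigen gene Ly6g was at 0.121 CPM or less and the granule gene Ngp at 0.0294 CPM or less in every tumor. Plac8 went the other way, from 36.8 to 48 CPM in cultures to 17.8 to 24.6 CPM in tumors (log2 fold change -1.08 ± 0.14 SE, adjusted p = 0.000184), and was at -0.91 when scaled to the culture-expressed genes.

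Of the dendritic cell markers, 7 of the 8 tested were higher. Flt3, the growth factor receptor of the lineage, was at 1.82 to 4.59 CPM in tumors, and Ccl22, a chemokine of mature dendritic cells, at 2.15 to 5.22 CPM. Itgax, the integrin CD11c, rose from 0.356 to 0.511 CPM to 11.1 to 28.4 CPM (log2 fold change 5.53 ± 0.34 SE, adjusted p = 2.25e-06). Clec9a is taken as a marker of cross-presenting dendritic cells, but it was at 4.1 to 10.4 CPM in the cultures and at 12.8 to 14.8 CPM in tumors, a difference called without culture 1 (log2 fold change 1.12) or without culture 2 (1.02).

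T cell transcripts were low and uneven. Of the 14 tested markers 8 had no count in any culture. The summed level of the list was 26.4, 57.5, 13.6 and 22.6 CPM in tumors 001 to 004. Cd3e, a chain of the T cell receptor complex, was at 1.96, 4.67, 1.03 and 1.99 CPM, and Cd8a at 3.39, 3.43, 1.91 and 4.9 CPM, both with no count in cultures. Cd4 was at 3.51 and 7.83 CPM in tumors 001 and 002 and at 0.971 and 1.23 CPM in tumors 003 and 004. Of 9 markers of natural killer cells and cytotoxicity 8 had no count in any culture. Gzmb, the protease granzyme B, was at 3.12 to 5.92 CPM in tumors, and the sum of the list ran from 13 CPM in tumor 003 to 27.6 CPM in tumor 002.

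B cell markers were low. Of 8 markers only Ighm and Pax5 could be tested. Ighm, the heavy chain of immunoglobulin M, was at 18.2, 17.7, 5.59 and 9.93 CPM. Pax5 was already at 1.75 to 2.73 CPM in cultures and at 3.94 to 7.04 CPM in tumors (log2 fold change 1.25 ± 0.26 SE, adjusted p = 0.00272). Mast cells divided the tumors: the tryptase Tpsb2 was at 45.1, 51.7, 8.86 and 6.8 CPM, and the chymase Mcpt4 at 31.5, 31.8, 6.8 and 3.72 CPM. The summed level of the 6 mast cell markers was 120 and 124 CPM in tumors 001 and 002 and 23.2 and 16 CPM in tumors 003 and 004.

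Endothelium was present in every tumor, with 13 of 15 markers higher. Pecam1, the adhesion molecule CD31, had 7 counts over the 4 cultures, at 0.158 CPM or less, and was at 50.8 to 71.1 CPM in tumors. Cdh5, the cadherin of endothelial junctions, had 11 counts, at 0.28 CPM or less, and was at 59 to 95.6 CPM in tumors. Both passed the filter through the tumors alone and are described without a test. The receptor Tie1 had no count in cultures and was at 22.4 to 32.2 CPM in tumors (at least 951-fold higher). Summed, the list was at 528, 442, 605 and 491 CPM, lowest in tumor 002 and highest in tumor 003. The cultures themselves summed to as much as 140 CPM, of which Eng made up 90.3 to 109 CPM and Flt1 12.6 to 18.6 CPM. Flt1 was not called against all cultures, and was called without tumor 002 (log2 fold change 1, adjusted p = 0.00252), against cultures 1 and 2 alone (1.1, adjusted p = 0.00757), in the edited libraries (1.09, adjusted p = 1.51e-05), and scaled to culture-expressed genes or by upper-quartile factors (1.01 for both). Of 5 lymphatic markers only Lyve1 and Flt4 could be tested, both higher, and the lineage factor Prox1 was at 0.546 CPM or less in every tumor.

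Pericyte and smooth muscle markers were higher for 8 of the 9 tested. Rgs5, a signaling regulator of pericytes, was at 40.5, 34.5, 54.8 and 40.9 CPM in tumors and at 0.0622 CPM or less in cultures, and the potassium channel subunit Abcc9 was at 9.74 to 16.4 CPM with no count in cultures. Acta2, the smooth muscle actin often used as a marker of activated fibroblasts, was not called, at 16.5, 11.3, 53.3 and 32.9 CPM in cultures and 20.8, 18.4, 28.5 and 25.9 CPM in tumors.

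Fibroblast markers were higher for 13 of 14. Dcn, the proteoglycan decorin, had 6 counts over the 4 cultures, at 0.121 CPM or less, and was at 1110, 1060, 1010 and 1110 CPM in tumors 001 to 004. It passed the filter through the tumors alone and is described without a test. Col1a1, a chain of type I collagen, rose from 0.715 to 1.6 CPM to 950, 561, 2040 and 904 CPM (log2 fold change 9.82 ± 0.55 SE, adjusted p = 1.28e-06). The collagen was highest in tumor 003 and lowest in tumor 002. Col3a1, a chain of type III collagen, was a gene of the line as well, at 1690, 1640, 597 and 1640 CPM in cultures 1 to 4, and was at 6300, 8070, 5750 and 7130 CPM in tumors (2.29 ± 0.32, adjusted p = 0.000251). Pdgfra, the growth factor receptor of fibroblasts, was at 13 to 20.1 CPM in cultures and at 213 to 292 CPM in tumors (3.78 ± 0.19, adjusted p = 6.82e-07).

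Skeletal muscle genes differed most between tumors. The summed level of 11 skeletal muscle genes was 181 and 245 CPM in tumors 001 and 002, and 7.56 and 6.55 CPM in tumors 003 and 004, against 1.41 to 3.06 CPM in cultures. Acta1, the actin of skeletal muscle, was at 56.5 and 82.5 CPM in tumors 001 and 002 and at 0.147 and 0.254 CPM in tumors 003 and 004. The same 2 tumors had the higher mast cell levels. Only 4 of the 11 genes could be tested, and the number called higher fell from 4 to 2 without tumor 002. Of 8 adipocyte genes only Fabp4 could be tested, at 6.3 to 16.3 CPM in tumors and 0.155 CPM or less in cultures, and Adipoq, the adipocyte hormone adiponectin, was at 0.971 CPM or less. More of these genes entered the test when any 1 culture or tumor 004 was left out, through the tumors that hold them.

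Globin transcripts, the mark of red cells, differed between tumors as well. Hbb-bs was at 31.5, 11.1, 24.3 and 59.7 CPM and Hba-a1 at 22.7, 7.1, 20 and 46.9 CPM in tumors 001 to 004, with no count in cultures, lowest in tumor 002 and highest in tumor 004. Globin genes have near-identical copies, so that reads may be split between them. Of the 8 tested members of the red cell and platelet list 4 had no count in any culture. The keratinocyte genes Krt5 and Krt14 were at 0.0607 CPM or less in every library, and none of the 3 tested Schwann cell markers was called (1 was higher without any 1 culture or without tumor 004).

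Y-linked genes gave another view of the host cells. Ddx3y, Uty, Kdm5d and Eif2s3y are expressed in nearly all male cells, and none had a single count in the 4 cultures. In tumors 001 to 004, which grew in male mice, Ddx3y was at 9.47, 9.53, 8.33 and 10.1 CPM (at least 342-fold higher), and the 4 genes summed to 20, 22.7, 17.4 and 21.1 CPM, a range of 1.31-fold.

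**Figure D2:**
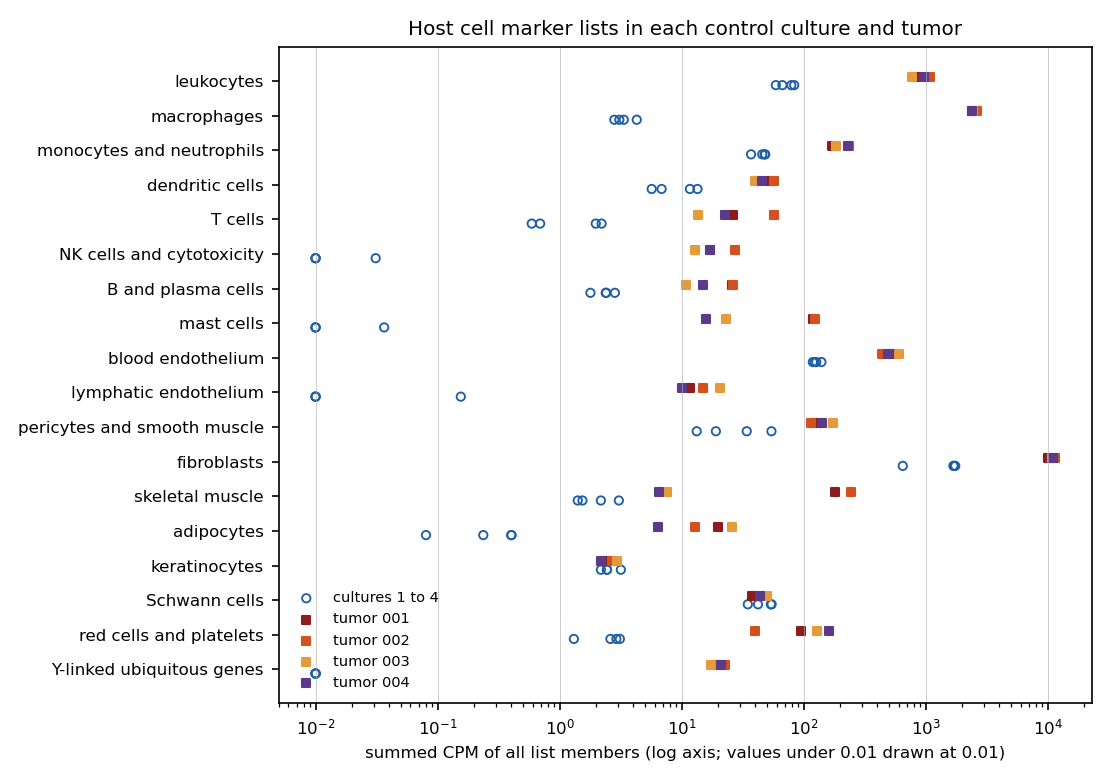
Summed CPM of all members of each host cell list, on a log axis, in each control culture (open circles) and each control tumor (squares, one color a tumor). Macrophage markers stay within 2400 to 2620 CPM in the tumors, while skeletal muscle spans 6.55 to 245 CPM and mast cells 16 to 124 CPM.

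The culture-silent class was looked for in libraries it was not chosen on. In 4 cultures of mt.11944 60% cells, 560 of the 624 genes (89.7%) were under 0.1 CPM in each, and in 14 tumors grown from mt.12436 60% and mt.12436 40% cells, 537 (86.1%) were at least 1 CPM in each. Both held for 483 genes (77.4%), and for 582 of all 56748 genes in the data. A level under 0.1 CPM was common by itself: 39589 of all genes had it in each of the 4 control cultures. These cells carry an edit of mt-Nd5 at the percentage of mitochondrial DNA copies given in the name. Against the edited cultures, the edited tumors called 740 of the 904 higher culture-expressed genes higher as well (81.9% of these and 84.2% of the 879 called there, against a background of 8.06%), and 899 of the 1122 lower ones lower (80.1%, and 76.3% of the 1179 called there, against 10.8%). The 2 comparisons share no library, but the edited cultures and tumors carry different edits.

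Among culture-expressed genes, the 10 largest rises were in genes of matrix or secreted proteins and in genes known from blood cells. How frequent such genes are among all the higher ones was not tested. Tgfbi, a matrix protein induced by TGF-beta, was at 3.82, 2.84, 5.66 and 3.61 CPM in cultures 1 to 4 and at 362, 477, 406 and 460 CPM in tumors 001 to 004 (log2 fold change 6.74 ± 0.25 SE, adjusted p = 1.77e-07). Dpt, the matrix protein dermatopontin, rose from 3.54 to 9.48 CPM to 286 to 515 CPM (5.88 ± 0.41), and Bgn, the proteoglycan biglycan, from 1.15 to 2.57 CPM to 92.4 to 153 CPM (5.93 ± 0.29). Igfbp7, a secreted binding protein, and Ccbe1, a secreted factor of lymphatic growth, rose by 5.37 ± 0.24 and 4.97 ± 0.52 on the log2 scale. The other 5 of the first 10 are known from blood cells: Lsp1, an actin-binding protein of leukocytes, was at 1.31 to 3.98 CPM in cultures and 141 to 196 CPM in tumors (5.86 ± 0.33), and Cyth4, Cd68, Fmnl1 and Vsir rose by 5.12 to 5.54. All 10 had no overlap between the groups, and adjusted p lay between 1.59e-07 and 4.81e-05. The line makes each of these transcripts at a low level, so that host and melanoma cells cannot be told apart as their source in the tumors.

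The 10 largest falls included Cth, Slc7a11, Trib3, Chac1 and Aldh1l2, which are members of the integrated stress response list read below. Cth, the enzyme that makes cysteine from cystathionine, was at 99.8, 91.1, 9.51 and 20.1 CPM in cultures 1 to 4 and at 0.857, 0.546, 0.588 and 0.761 CPM in tumors (log2 fold change -6.33 ± 0.83 SE, adjusted p = 0.000188). Slc7a11, which imports cystine, fell from 166, 161, 23.7 and 50.1 CPM to 3.35, 2.97, 6.62 and 6.72 CPM (-4.35 ± 0.66, adjusted p = 0.000418). Adh7, an alcohol and retinol dehydrogenase, fell from 19.8 to 43.5 CPM to 0.761 to 2.28 CPM (-4.6 ± 0.38, adjusted p = 1.23e-05). Ptgs2, the prostaglandin synthase COX-2, was at 1440, 1400, 133 and 102 CPM in cultures and at 26.6 to 65.4 CPM in tumors (-4.02 ± 0.91, adjusted p = 0.00429), so that most of its size came from cultures 1 and 2. Cdsn, an adhesion protein of the skin, showed the same division, with 63.7, 60.5, 2.42 and 2.3 CPM in cultures and 0.49 to 1.32 CPM in tumors (-5.15 ± 1.18, adjusted p = 0.00454). Atp1b1, a subunit of the sodium pump, was even across cultures, at 42.2 to 57.8 CPM, and at 1.35 to 6.31 CPM in tumors (-4.01 ± 0.44, adjusted p = 6.71e-05). Npnt, a matrix ligand of integrins, fell from 15.4 to 61.5 CPM to 2.16 to 2.65 CPM (-3.84 ± 0.48, adjusted p = 0.000142).

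Members of the integrated stress response fell together. This pathway reads amino acid shortage, unfolded protein and mitochondrial stress, slows translation, and through the transcription factor ATF4 switches on genes that make and import amino acids. Of 20 list members, all culture-expressed, 19 were lower in tumors, against 10.3% of culture-expressed genes, and the median log2 fold change was -2.92. The groups did not overlap for 16 of the 20, against 32.5% of culture-expressed genes. Summed, the list was at 9090, 8630, 3910 and 5340 CPM in cultures 1 to 4 and at 1300, 1210, 1390 and 1210 CPM in tumors. The tumors were close to each other and every culture was above them. In the edited libraries the sums were 2770 to 9120 CPM in the 4 cultures and 998 to 2190 CPM in the 14 tumors, again without overlap.

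Atf4 itself was at 918, 933, 388 and 584 CPM in cultures and at 233, 207, 235 and 222 CPM in tumors (-1.65 ± 0.26, adjusted p = 0.000518). Its targets in amino acid synthesis fell further: Psat1, an enzyme of serine synthesis, from 790 to 1040 CPM to 110 to 125 CPM (-2.89 ± 0.13, adjusted p = 4.42e-07), and Asns, asparagine synthetase, from 711, 650, 216 and 353 CPM to 48.8 to 64.7 CPM (-3.11 ± 0.36, adjusted p = 8.47e-05). Phgdh, the first enzyme of serine synthesis, fell from 705 to 842 CPM to 141 to 189 CPM (-2.21 ± 0.13, adjusted p = 1.4e-06). For these 4 genes both pairs of cultures were above all tumors.

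Trib3, a pseudokinase that damps the response, was at 570, 546, 10.1 and 73.1 CPM in cultures and at 7.02, 4.37, 7.74 and 5.96 CPM in tumors (-5.58 ± 1.11, adjusted p = 0.00207). Chac1, an enzyme that degrades glutathione, was at 34.4, 36.5, 4.57 and 47.9 CPM in cultures and at 0.819 to 1.52 CPM in tumors (-4.78 ± 0.66, adjusted p = 0.000241). Aldh1l2, a folate enzyme of mitochondria, was at 408, 410, 25.5 and 50.7 CPM and at 6.62 to 10 CPM (-4.66 ± 0.88, adjusted p = 0.00154).

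The stress arm of the list rested on cultures 1 and 2. Atf3 was at 124 and 122 CPM in cultures 1 and 2, at 1.96 and 5.69 CPM in cultures 3 and 4, and at 9.71, 5.22, 12.2 and 5.66 CPM in tumors. Against all cultures its log2 fold change was -2.95 ± 1.12 (adjusted p = 0.0458), and against cultures 3 and 4 alone it was 1.08 (adjusted p = 0.0966). Without tumor 002 its adjusted p was 0.108, and without tumor 004 it was 0.106. Ddit3, which encodes CHOP, turned from -2.19 to 1.29 against cultures 3 and 4 (adjusted p = 0.0773 and 0.00713), and leaving out any library but culture 3 or culture 4 took its adjusted p to between 0.119 and 0.171. Ppp1r15a, which restores translation, turned from -4.12 to 0.14. Nupr1, not called against all cultures, was at -1.08 against cultures 1 and 2 (adjusted p = 0.000224) and at 1.75 against cultures 3 and 4. Counted against cultures 3 and 4 alone, 15 of the 20 members were lower and 3 higher, and against cultures 1 and 2 20 were lower and 0 higher.

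**Figure D3:**
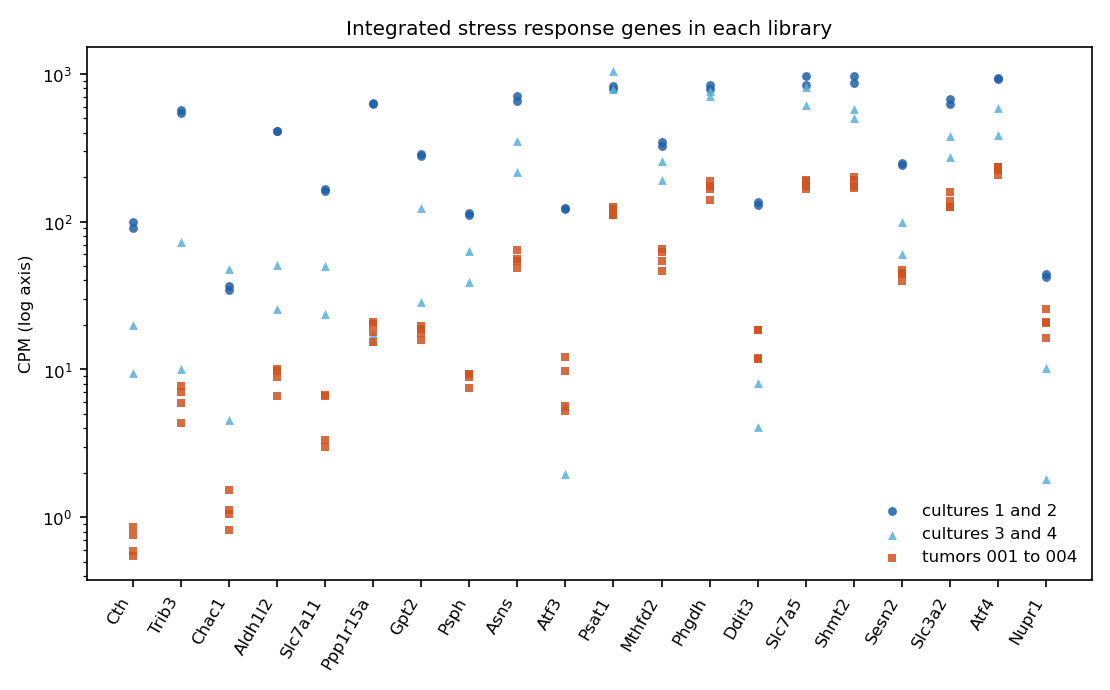
CPM, on a log axis, of the 20 integrated stress response genes in cultures 1 and 2 (circles), cultures 3 and 4 (triangles) and tumors 001 to 004 (squares), ordered by log2 fold change. All tumors lie below all cultures for 16 genes, while cultures 3 and 4 reach or pass under the tumors for Ppp1r15a, Atf3, Ddit3 and Nupr1.

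ATF4 and its partners bind an amino acid response element. Among the 19 members that were lower, 16 had a RefSeq promoter (GRCm38.p6, from 250 bases before to 50 after the start), and 5 of these held TGATGNAA on one strand or the other, against 3.97% of 32851 promoters. The stretch around each match is shown, 5′ to 3′ on the strand of the gene, with the match in capitals.
Asns (chr6:7693185-7693272, minus strand): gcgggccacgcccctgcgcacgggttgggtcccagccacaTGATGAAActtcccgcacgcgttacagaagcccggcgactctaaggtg
Slc7a11 (chr3:50443613-50443700, minus strand): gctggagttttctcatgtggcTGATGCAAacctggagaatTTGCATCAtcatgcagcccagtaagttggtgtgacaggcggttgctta
Atf3 (chr1:191183396-191183483, minus strand): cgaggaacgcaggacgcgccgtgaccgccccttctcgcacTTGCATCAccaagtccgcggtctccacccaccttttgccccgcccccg
Chac1 (chr2:119351009-119351096, plus strand): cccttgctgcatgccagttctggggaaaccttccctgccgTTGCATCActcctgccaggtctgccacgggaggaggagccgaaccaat
Trib3 (chr2:152344011-152344086, minus strand): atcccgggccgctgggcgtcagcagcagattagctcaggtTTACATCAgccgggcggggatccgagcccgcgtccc
Asns has its match on the strand of the gene, Atf3, Chac1 and Trib3 have it on the opposite strand, and Slc7a11 has one match on each. A match begins 23 bases before the start of Asns, 66 and 47 before that of Slc7a11, 110 before that of Atf3 and 193 before that of Chac1, and 14 bases after that of Trib3. A match is a description of the letters in this window.

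Genes of cell division differed by list and by the cultures they were set against. Of 20 genes of DNA replication, 15 were lower and none higher, against 10.3% of culture-expressed genes, with a median log2 fold change of -1.12. Mcm2, a subunit of the replicative helicase, was at 331, 308, 371 and 325 CPM in cultures and at 149, 136, 156 and 139 CPM in tumors (-1.2 ± 0.1, adjusted p = 1.56e-05), and Mcm3, another of its subunits, fell by 1.55 ± 0.18 on the log2 scale (adjusted p = 9.17e-05). The size depended on the cultures: the list summed to 2480 and 2270 CPM in cultures 1 and 2, to 4930 and 4190 CPM in cultures 3 and 4, and to 1490 to 1700 CPM in tumors. Against cultures 1 and 2 alone 3 members were lower and 1 higher, against cultures 3 and 4 alone 17 were lower, and without culture 3 it was 7. Scaled to the culture-expressed genes, 9 were lower.

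Of 20 genes of mitosis 7 were lower, against 10.3% of culture-expressed genes, with a median of -0.89. Their number was 11 without culture 1 or without culture 2, 5 with 1 higher against cultures 1 and 2 alone, and 13 against cultures 3 and 4 alone. Aurka, a kinase of the spindle, fell from 90.5 to 122 CPM to 31.9 to 40.1 CPM (-1.53 ± 0.13, adjusted p = 1.33e-05), and Ccnb1, the cyclin that starts mitosis, from 165 to 264 CPM to 70.7 to 87.9 CPM (-1.37 ± 0.16, adjusted p = 9.11e-05). Mki67, the usual proliferation marker, was not called, at 69.9, 136, 305 and 316 CPM in cultures and 201, 207, 309 and 284 CPM in tumors. It was called higher against cultures 1 and 2 alone (1.26, adjusted p = 0.0133) and was at -0.34 against cultures 3 and 4 alone (adjusted p = 0.121). Of 16 tested transcripts without a poly(A) tail, among them replication histones, 8 were lower and none higher, against 8.4% of all genes called lower, with a median of -1.07. Against cultures 1 and 2 alone 6 were lower, and against cultures 3 and 4 alone 13 were. The list summed to 950, 957, 455 and 716 CPM in cultures 1 to 4, with culture 3 inside the 435 to 564 CPM of the tumors. Its sum was thus higher in cultures 1 and 2, unlike that of the replication genes. The part of these transcripts in the result was not tested.

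Of 16 genes in a list of Myc and ribosome biogenesis, 10 were lower and none higher, against 10.3% of culture-expressed genes called lower, with a median of -1.08. Myc itself was at 1080, 1020, 254 and 286 CPM in cultures and at 260, 230, 435 and 277 CPM in tumors (-1.13 ± 0.49, adjusted p = 0.0709). Its groups overlapped, and only cultures 1 and 2 were above all tumors. Ncl, the nucleolar protein nucleolin, was at 2060 to 3230 CPM in cultures and at 1010 to 1240 CPM in tumors (-1.19 ± 0.17, adjusted p = 0.000253), and Wdr43, a factor of the small ribosomal subunit, fell by 1.34 ± 0.19 (adjusted p = 0.000262). The groups did not overlap for 15 of the 16. Scaled to the culture-expressed genes, 6 were lower.

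The summed transcripts of the respiratory chain were higher in tumors for mitochondrial DNA and lower for the nuclear subunits. The chain is built from subunits encoded in mitochondrial DNA and a larger number encoded in the nucleus. The 13 mRNAs of mitochondrial DNA took 0.269%, 0.298%, 0.552% and 0.338% of the counts in cultures 1 to 4 and 1.27%, 1.48%, 1.16% and 1.2% in tumors 001 to 004. The means were 0.364% ± 0.129 (SD, n = 4) and 1.28% ± 0.141 (SD, n = 4), a ratio of 3.5, with an exact two-sided permutation p = 0.0286, the smallest that 4 against 4 can give. The lowest tumor lay above the highest culture by more than the spread within either group. Leaving out any single library gave ratios of 3.22 to 4.23.

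By gene, 8 of the 13 were higher, against 8.29% of culture-expressed genes. The transcript mt-Co1, of the catalytic subunit of cytochrome c oxidase, was at 1500, 1690, 2340 and 1510 CPM in cultures and at 5150, 5800, 4890 and 4870 CPM in tumors (1.56 ± 0.17, adjusted p = 6.76e-05). mt-Nd5, the complex I gene that the series edits in other cells, was at 148, 178, 462 and 242 CPM and at 781, 1120, 763 and 987 CPM (1.83 ± 0.34, adjusted p = 0.00144). mt-Cytb, the cytochrome of complex III, rose by 1.65 ± 0.25 (adjusted p = 0.000383), and mt-Nd4 and mt-Nd6 of complex I by 1.82 ± 0.21 and 1.85 ± 0.31. mt-Nd1 was not called against all cultures (0.94 ± 0.39) and was at 1.46 without culture 3 (adjusted p = 0.00117), at 1.85 against cultures 1 and 2 alone and at 0.34 against cultures 3 and 4 alone. mt-Nd3 was at -0.47 (adjusted p = 0.249) and was called lower in the edited libraries (-1.13, adjusted p = 4.72e-05). mt-Nd3, mt-Co3, mt-Atp6 and mt-Atp8 were the other 4 that were not called, each at 10.6 CPM or less in every library, and mt-Atp8 was called without culture 1 (1.01, adjusted p = 0.0138).

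Of 28 nuclear subunits 4 were lower and none higher, a share near the 10.3% of culture-expressed genes, and the number was 6 against cultures 1 and 2 alone and 9 against cultures 3 and 4 alone. The 4 were Ndufv2 of complex I (-1.08 ± 0.11, adjusted p = 3.26e-05), Uqcrfs1 of complex III (-1.04 ± 0.09, adjusted p = 1.68e-05), Cox5a of complex IV (-1.21 ± 0.12, adjusted p = 4.25e-05) and Atp5f1c of the ATP synthase (-1.37 ± 0.1, adjusted p = 6.23e-06). Most of the list fell short of a 2-fold change, yet all tumors lay below all cultures for 24 of the 28, against 32.5% of culture-expressed genes, and the median was -0.73. The sum was 6750, 6280, 7750 and 7900 CPM in cultures and 4440, 4300, 4550 and 4140 CPM in tumors. Scaled to the culture-expressed genes, 2 were lower and the median was -0.57.

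**Figure D4:**
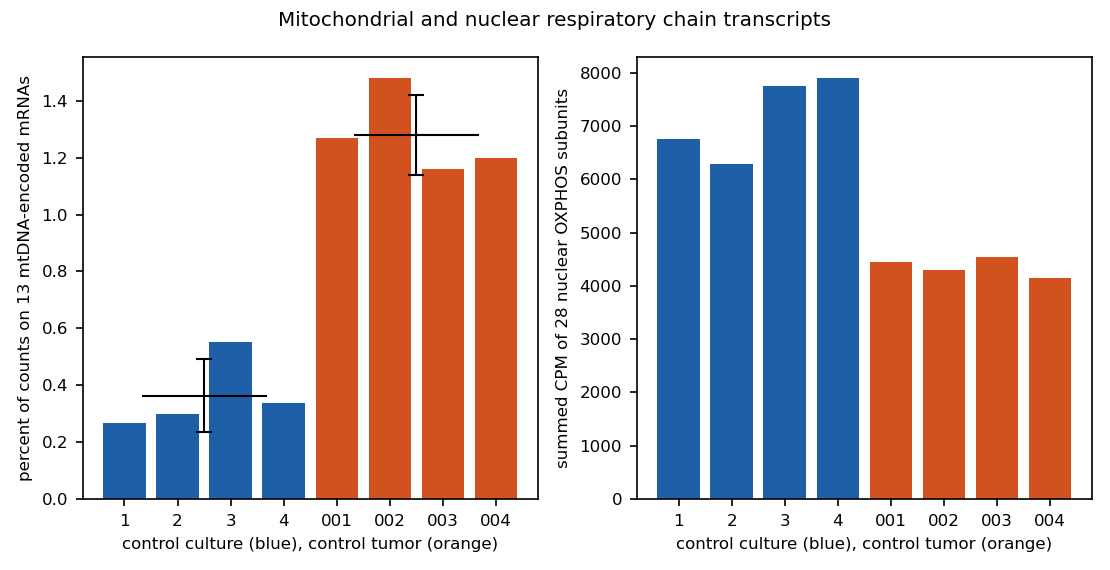
Left, percent of all counts on the 13 mRNAs of mitochondrial DNA in each control culture and tumor, with group means and SD (n = 4 each). Right, summed CPM of 28 nuclear subunits of the respiratory chain and ATP synthase, at 6280 to 7900 in cultures and 4140 to 4550 in tumors.

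Most genes of antigen presentation and of the interferon response were higher in tumors. MHC class I displays peptides from inside a cell, class II displays peptides a professional antigen-presenting cell has taken up, and interferons raise both. Of 15 class I genes 12 were higher, against 24.4% of all genes, with a median log2 fold change of 2.25. H2-K1 was at 36.8, 35.1, 5.66 and 7.77 CPM in cultures and at 518, 706, 303 and 483 CPM in tumors (4.56 ± 0.66, adjusted p = 0.000332). H2-D1, the other classical class I gene, was at 360, 356, 154 and 191 CPM and at 1180, 1500, 799 and 1250 CPM (2.16 ± 0.32, adjusted p = 0.000349). Reads of the class I genes can be shared between near-identical copies. Tapbp, which loads peptides, rose by 3.05 ± 0.18 (adjusted p = 1.68e-06), and Psmb8, a subunit of the immunoproteasome, was at 0.0804 CPM or less in cultures and at 19.2 to 47.6 CPM in tumors. The line itself has MHC class I transcripts in culture, so that its own part in the tumor level cannot be told apart from the host's.

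All 8 class II genes were higher, against 24.4% of all genes, with a median of 9.52. Of these, 3 were culture-silent and 1 was culture-expressed. Culture-silent genes could pass the filter on low counts through the tumors alone and had to come out higher, so that such counts are descriptions. The invariant chain Cd74 was at 1.07 CPM or less in cultures and at 437, 608, 137 and 251 CPM in tumors (9.42 ± 0.86, adjusted p = 2.18e-05). Summed, the list was at 961, 1380, 331 and 552 CPM in tumors 001 to 004. Of 25 interferon genes 22 were higher, against the same 24.4%, with a median of 5.64, and here 9 were culture-silent and 7 culture-expressed. Stat2, a transcription factor that interferons activate, rose by 3.76 ± 0.23 on the log2 scale (adjusted p = 2.4e-06), and Irf9, its partner on DNA, by 3.61 ± 0.24 (adjusted p = 3.65e-06). Zbp1, a sensor of nucleic acids, had no count in cultures and was at 18.2, 23.8, 7.33 and 18.4 CPM in tumors (at least 620-fold higher). The 3 not called were Ifit2, at 36.6 to 50.5 CPM in cultures and 27.4 to 42 CPM in tumors, and the receptor chains Ifnar1 (0.64 ± 0.11) and Ifnar2 (0.47 ± 0.17).

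Tumor 002 had the highest and tumor 003 the lowest sum for class I, class II, interferon genes and T cell markers alike. The interferon sums were 698, 992, 509 and 674 CPM in tumors 001 to 004 and 147 to 161 CPM in cultures. Promoters of the higher interferon genes were read for the interferon element: of the 15 with a RefSeq promoter (GRCm38.p6), 9 held it on one strand or the other, against 3.44% of 32851 promoters. Stat2 and Rsad2 are shown, the former for its place in the pathway and the latter for its rise, 5′ to 3′ on the strand of the gene, with the match in capitals.
Stat2 (chr10:128270248-128270325, plus strand): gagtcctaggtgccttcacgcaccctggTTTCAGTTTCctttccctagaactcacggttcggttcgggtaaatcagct
Rsad2 (chr12:26456523-26456612, minus strand): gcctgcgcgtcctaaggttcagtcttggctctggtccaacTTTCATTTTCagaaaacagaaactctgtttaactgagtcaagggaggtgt
In both, the match reads on the strand opposite to that of the gene, beginning 222 bases before the start of Stat2 and 120 before that of Rsad2. Rsad2, the antiviral enzyme viperin, had 1 count in the 4 cultures and was at 15.8 to 24 CPM in tumors.

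**Figure D5:**
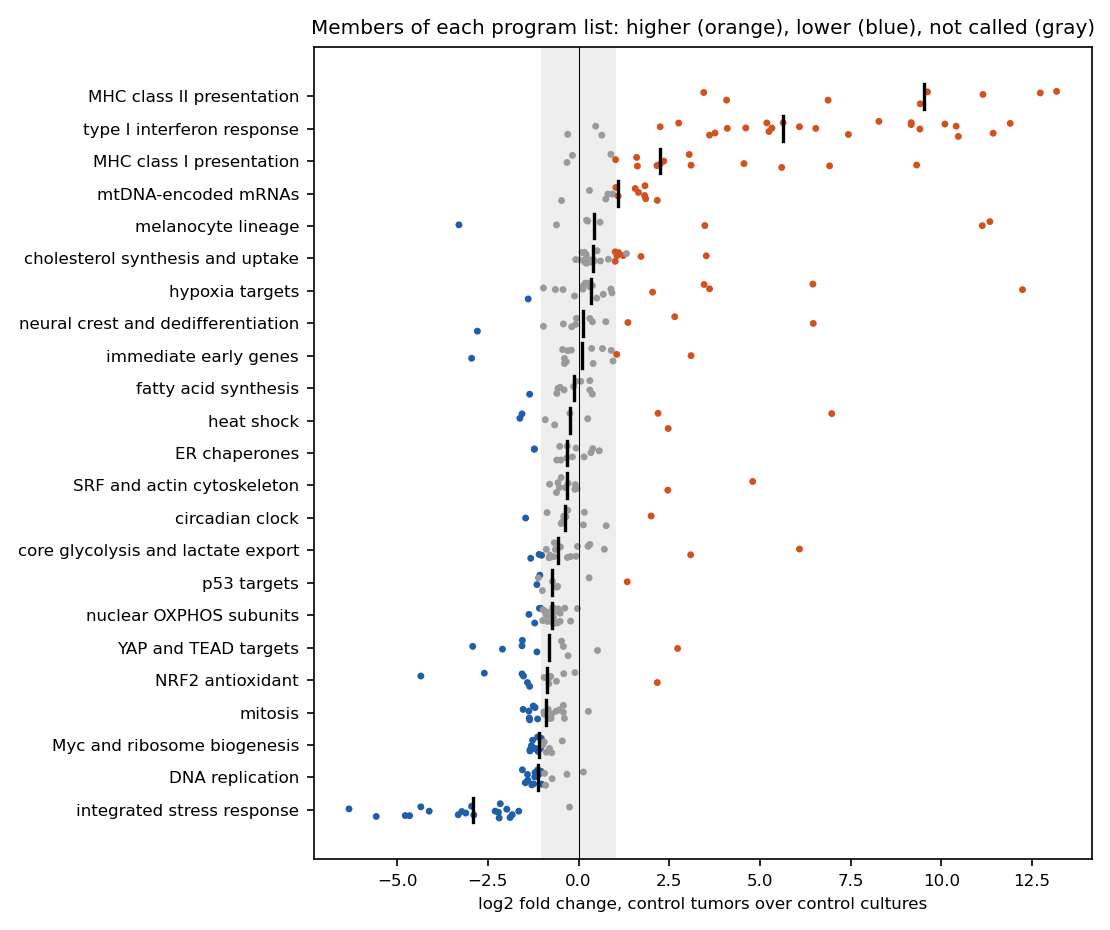
Log2 fold change of each tested member of the cancer cell and program lists, control tumors over control cultures, with a black bar at each list's median and a gray band for changes under 2-fold. Class II and interferon genes lie far to the right, with medians of 9.52 and 5.64, and the integrated stress response to the left, with a median of -2.92.

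Hypoxia targets were mixed: 5 of 20 were higher and 1 lower, with a median of 0.34, and 15 of the 20 were above 0. Of all genes, 24.4% were higher and 8.4% lower. Of culture-expressed genes, to which 16 of the 20 belong, 8.29% were higher and 10.3% lower. Against cultures 1 and 2 alone 7 were higher and 3 lower, and against cultures 3 and 4 alone 5 and 0. Stc1, a secreted glycoprotein, rose from 0.466 to 2.59 CPM to 223, 149, 138 and 132 CPM (6.46 ± 0.47, adjusted p = 6.15e-06), and Bhlhe40, a repressor that answers hypoxia, from 3.08 to 9.85 CPM to 41.2 to 86.9 CPM (3.61 ± 0.41, adjusted p = 7.36e-05). Car9, the carbonic anhydrase most used as a hypoxia marker, was at 0.965 CPM or less in cultures and at 4.77, 1.94, 13.1 and 4.06 CPM in tumors (3.46 ± 0.75, adjusted p = 0.00332). Vegfa, the growth factor of vessels, was at 124, 133, 31.6 and 43.1 CPM in cultures and 80.7, 27, 85.1 and 52.8 CPM in tumors, and Ndrg1 at 274, 256, 39.7 and 103 CPM and 139, 91.3, 236 and 154 CPM, with overlap for both. The list summed to 2260, 1280, 2660 and 2010 CPM in tumors 001 to 004, lowest in tumor 002. The one lower member was Ero1a, whose call (-1.39 ± 0.59, adjusted p = 0.0695) was lost without culture 1 (adjusted p = 0.159), culture 2 (0.152), tumor 001 (0.129), tumor 002 (0.151) or tumor 004 (0.129). Without culture 3 or without tumor 003, 2 members were lower.

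Of 20 genes of glycolysis 2 were higher and 3 lower, near the 8.29% and 10.3% of culture-expressed genes. Slc16a3, the lactate exporter MCT4, rose from 0.161 to 1.13 CPM to 36.2, 29.7, 55.5 and 54.1 CPM (6.09 ± 0.46, adjusted p = 7.75e-06), while Slc16a1, the transporter MCT1, fell from 392 to 432 CPM to 192 to 209 CPM (-1.02 ± 0.09, adjusted p = 1.99e-05) and was at -0.86 when scaled to the culture-expressed genes. Pgk1, phosphoglycerate kinase, fell from 1140 to 1440 CPM to 525, 370, 648 and 519 CPM (-1.32 ± 0.17, adjusted p = 0.000193). Cholesterol synthesis depended on the cultures: 7 of 24 genes were higher against all cultures, beside 8.29% of culture-expressed genes. Against cultures 1 and 2 alone 12 were higher, and against cultures 3 and 4 alone 2 were. The number was 2 without culture 1, 2 without culture 2, 4 without tumor 001, 4 without tumor 003 and 3 without tumor 004.

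Antioxidant genes of the NRF2 pathway were lower for 6 of 15 and higher for 1, against 10.3% and 8.29% of culture-expressed genes. Nqo1, a quinone reductase, fell from 32.3 to 52.4 CPM to 5.03 to 8.18 CPM (-2.6 ± 0.22, adjusted p = 1.38e-05), and Txnrd1, thioredoxin reductase, from 499 to 769 CPM to 194 to 245 CPM (-1.56 ± 0.16, adjusted p = 5.15e-05). Hmox1, the heme-degrading enzyme that macrophages also make, went the other way, from 30.3 to 46 CPM to 90.5, 51.6, 317 and 234 CPM (2.17 ± 0.5, adjusted p = 0.00477). YAP and TEAD targets were lower for 5 of 10, against the same 10.3%, led by Ankrd1 (-2.92 ± 0.73, adjusted p = 0.00725) and Amotl2, a scaffold that holds YAP back (-2.1 ± 0.22, adjusted p = 4.53e-05), and Ccn2 was higher (2.73 ± 0.96, adjusted p = 0.0347). Against cultures 3 and 4 alone Ankrd1 was not called (-0.93). Ankrd1 was at 83.4 and 84.9 CPM in cultures 1 and 2, 10.1 and 13.5 CPM in cultures 3 and 4, and 3.3 to 9.56 CPM in tumors.

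The chaperone Hspa5, known as BiP, fell from 1230 to 2180 CPM to 689 to 868 CPM (-1.22 ± 0.2, adjusted p = 0.000747), and Herpud1 was the other 1 of 13 ER chaperone and quality control genes that was lower, against 10.3% of culture-expressed genes. Against cultures 3 and 4 alone neither was called, with Hspa5 at -0.86 and Herpud1 at -0.93. Of 9 heat shock genes 3 were higher and 2 lower, against 24.4% and 8.4% of all genes, with 4 lower when tumor 001 was left out. Among the higher was Hspa1a, with 8 counts over the 4 cultures and 11.1, 2.85, 18.2 and 6.04 CPM in tumors, which passed the filter through the tumors alone. The lower ones were the mitochondrial chaperones Hspd1 (-1.62 ± 0.22, adjusted p = 0.000226) and Hspe1 (-1.56 ± 0.16, adjusted p = 3.85e-05). Of the remaining lists, SRF and actin genes had 2 of 12 higher and 0 lower, immediate early genes 2 of 14 higher and 1 lower, clock genes 1 of 12 each way, p53 targets 1 of 9 higher and 2 lower, and fatty acid synthesis 0 of 11 higher and 1 lower. Beside these, 8.29% of culture-expressed genes were higher and 10.3% lower. The small counts of these lists moved with single libraries: 1 immediate early gene was higher without culture 3, culture 4 or tumor 004 and 0 were lower without tumor 002 or tumor 004, 2 clock genes were higher without culture 2 and 2 lower without culture 3 or culture 4, and 4 p53 targets were lower without culture 4 (4 against cultures 1 and 2 alone, 1 against cultures 3 and 4 alone). Against cultures 3 and 4 alone 8 immediate early genes were higher, and against cultures 1 and 2 alone 1 was.

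Summed, 18 melanocyte genes were at 43.1, 45.7, 26.1 and 29.4 CPM in cultures 1 to 4 and at 58.5, 57.2, 99.3 and 53.6 CPM in tumors 001 to 004. B78 is amelanotic, and the pigment enzymes Tyr and Tyrp1 had 0 to 0.0365 CPM in cultures. Mitf, the master regulator of the lineage, was at 21.9, 24.9, 8.77 and 9.77 CPM in cultures and 19.7, 16.6, 16.3 and 23.5 CPM in tumors (0.22 ± 0.34, adjusted p = 0.598). Of the 18 genes 8 could be tested, and Pmel, Ednrb and Kit were higher and Rab38 lower, against 24.4% and 8.4% of all genes. Pmel was not called against cultures 1 and 2 alone (adjusted p = 0.126) or in the edited libraries, where its log2 fold change was 0.48. Kit and Ednrb, receptors of melanoblasts that other cells carry as well, had no count in cultures, so that they had to come out higher. They were at 8.59 to 14.7 and 4.83 to 15.4 CPM in tumors (at least 422-fold and 364-fold higher). Rab38, a melanosome sorting factor, fell from 2.21 to 4.3 CPM to 0.0845 to 0.471 CPM (-3.3 ± 0.43, adjusted p = 0.000171). Tumor 003 stood apart: Pmel was at 0.53, 1.34, 7.86 and 0.634 CPM and Sox10, the neural crest factor of the lineage, at 0, 1.73, 8.56 and 0 CPM in tumors 001 to 004.

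In the list of neural crest and dedifferentiation genes, 3 of 12 were higher and 1 lower, near the 24.4% and 8.4% of all genes. Of culture-expressed genes, 8.29% were higher and 10.3% lower. Without culture 2, culture 3 or tumor 002, 2 of the list were lower. Aqp1, a water channel of vessels and neural crest, rose from 0.442 to 5.56 CPM to 313, 163, 315 and 241 CPM (6.47 ± 0.79, adjusted p = 0.000121). Sox9 was at 16.6 to 33.7 CPM in cultures and 88.5, 35.2, 95.9 and 54.1 CPM in tumors (1.36 ± 0.34, adjusted p = 0.00706). Snai2, the factor Slug, fell from 137, 134, 73.2 and 78.9 CPM to 14.1 to 16.8 CPM (-2.79 ± 0.23, adjusted p = 1.3e-05), and the receptor Axl was at 656 to 763 CPM and 505 to 570 CPM, a difference under 2-fold. Ngfr, the receptor CD271, had 14 counts over the 4 cultures, at 0.328 CPM or less, and was at 0.338 to 1.12 CPM in tumors (2.65 ± 0.68), levels near the floor. In the edited libraries it was not called (0.92).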

How the data were processed

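RNA-seq reads were aligned by the authors with STAR 2.7.10a to GRCm39 (Ensembl release 107) and counted per gene with featureCounts 2.0.3, and the deposited values are raw counts; the strand setting is not given in the sources used here. Of 47 columns, 26 were matched to a sample by name and 21 were not used. The cultures and tumors were fitted alone, without covariates, with edgeR 4.0.16 in R 4.3.3 (TMM factors, quasi-likelihood test), and a gene was called at an adjusted p under 0.1 and at least 2-fold. CPM are counts per 1000000 of the TMM-scaled total on genes, and shares are of raw counts. A count of 0 was taken to allow 3 counts over the 4 cultures, which covers counting error only. DESeq2 1.42.0 and limma 3.58.1 were alternatives.

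The members, gene lists and tests were chosen with earlier results of these data known. Named genes were the 10 culture-silent genes highest in CPM or per kilobase, the 10 largest rises and falls of culture-expressed genes called without overlap and with a mean of at least 16 CPM, and in each list the first 3 genes and up to 3 of the largest rises and falls. Arhgap30, Asns, Cd74, Col3a1, Eng, Flt1, Ifit2, Ifnar1, Ifnar2, Ly6g, Ngp, Nupr1, Phgdh, Ppp1r15a, Psat1, Tapbp, Tyr, Tyrp1, Uqcrfs1 and 5 genes of mitochondrial DNA (mt-Atp6, mt-Atp8, mt-Co1, mt-Co3, mt-Cytb) together with mt-Nd4 were named after their values were seen. The programs were tested on simulated data. Some results are not reported here.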

Additional observations from a re-analysis of the deposited data

Results flagged for a closer look

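Among 314 groups of 4 libraries, 12 held a value that stood apart from the other 3 by Dixon's test, and chance gives about 1 in 20 groups. Tumor 003 was the highest for the summed melanocyte genes (99.3 CPM, next 58.5), the summed DNA replication genes (1700 CPM, next 1510), Cd68 (93.2 CPM), Ncl (1240 CPM), Pmel (7.86 CPM) and S100a8 (4.38 CPM). Tumor 002 was the highest for Csf1r, at 225 CPM against 175 CPM in the next tumor. Culture 3 was the lowest for the summed fibroblast genes (650 CPM, next 1690) and for Col3a1 (597 CPM, next 1640), and the highest for mt-Nd4 (274 CPM, next 167). Culture 4 was the highest for Ifit2 (50.5 CPM, next 36.8) and Psat1 (1040 CPM, next 832).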

How the results depend on the processing

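Of the genes tested, the number higher was 6589 with no filter on low counts and 1512 with at least 10 counts in every sample, and the number lower was 790 with that minimum, 809 when scaled to culture-expressed genes, 825 with upper-quartile factors, 4497 with no bound on the fold change and 136 at an absolute log2 fold change of at least 2. Culture-expressed genes that were higher numbered 2387 with no such bound, 247 at the stricter one and 529 among genes with at least 4 CPM in every culture. The lower ones numbered 712 when scaled to culture-expressed genes, 726 with upper-quartile factors, 4278 with no bound and 109 at the stricter one. Culture-silent genes numbered 1039 at under 0.5 CPM in cultures and 293 at no less than 4 CPM in tumors. The tumor to culture ratio of the share of mitochondrial mRNAs was 4.5 against cultures 1 and 2 and 2.86 against cultures 3 and 4, each with an exact permutation p = 0.0667, the smallest that 4 against 2 can give. Leaving out each library in turn gave 3567 to 4111 higher and 1257 to 1474 lower genes, 848 to 948 and 1108 to 1289 among culture-expressed genes, 640 to 670 culture-silent genes, and ratios of 3.22 to 4.23. Against cultures 3 and 4 alone Ero1a turned to 0.06, Atf3 to 1.08, Ddit3 to 1.29, Nupr1 to 1.75, Ppp1r15a to 0.14, Vegfa to 0.69, Ndrg1 to 1.1 and Mki67 to -0.34, and against cultures 1 and 2 alone Acta2 turned to 0.73 and Mitf to -0.32. Genes that were not called also crossed 0 elsewhere: Ndrg1 with limma (0.17), scaled to culture-expressed genes (0.04), with upper-quartile factors (0.03), with at least 10 counts in every sample (0), with the replicate block (0.1) and in the edited libraries (0.08), Nupr1 with limma (0.66) and the replicate block (0.45), Mki67 (-0.34) and Ifit2 (0.1) in the edited libraries. Leaving out each library in turn, Acta2 ran from -0.57 to 0.2, Mitf from 0 to 0.48, Ndrg1 from -0.46 to 0.21, Mki67 from -0.03 to 0.54 and Nupr1 from -0.65 to 0.19. Except where a value or the setting itself shows it, the cause was not tested.

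The replicate numbers of cultures and tumors do not pair them: the correlations of same-numbered deviations were -0.017, 0.009, -0.006 and -0.017. With the replicate block 3755 genes were higher and 1137 lower, and 972 and 1014 of the culture-expressed genes.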

Other observations

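Dct, a pigment enzyme, was at 0.0408, 3.1, 23.5 and 0 CPM in tumors 001 to 004 and at 0.198 to 0.365 CPM in cultures. It was named after its values were seen. Slc45a2, a melanosome transporter also named so, was at 1.62 CPM in tumor 003 and had no count in the other 7 libraries.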
